A study of Mus musculus with 19 samples.

Results

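Of 90154 peaks of open chromatin measured in differentiating mouse neural cells, 1199 sat where the ends of different protein-coding genes meet. A peak was taken when its centre lay on chromosomes 1 to 19 within 500 bp of an end of each of at least 2 different protein-coding genes in the RefSeq annotation of GRCm38. No measured value entered the choice. Another 9471 peaks had a single gene within that distance of their centre and served as the comparison. The 1199 peaks touched 2352 genes in 1198 different nearest pairs, and 13 of them had 1 more gene within reach. Each is named below by its nearest pair of genes, as in H2bc12/H2ac12.

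The series followed neurospheres (NSPs), floating cultures of neural stem cells, as they became astrocytes, with and without the cytokine tumour necrosis factor (TNF). The starting cells were taken at embryonic day 14 from the brains of C57BL/6J mice, at the ventricular zone, were grown with EGF as NSPs, and were differentiated in DMEM with 10% FBS on poly-L-ornithine. Open chromatin was read with ATAC-seq, where a transposase inserts adapters at exposed sites, in 3 libraries of untreated NSPs, 3 at 24 h, 3 at 72 h and 4 at 1 week of differentiation without TNF, and 3 each at 24 h and 72 h with TNF at 50 ng/ml. The cells are described as wild type, with single brains as the source of the cultures. The labels do not say whether replicates of a group came from separate cultures, so each p-value measures only the spread between these libraries. A bulk library cannot tell fewer open cells from less opening in each cell.

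A bidirectional promoter is a stretch of DNA from which a pair of neighbouring genes is read in opposite directions, so that the genes stand head-to-head and share 1 nucleosome-free region. Such pairs are common in mammals and are known for housekeeping genes: DNA repair, mitochondrial proteins, chaperones, and the H2A and H2B genes of the replication-dependent histone clusters. Many lie in CpG islands and lack a TATA box. Gene ends can also meet tail-to-tail, where transcription of both genes converges, or head-to-tail, where the start of a gene follows the end of its neighbour. Closeness of gene ends is only a proxy for a shared promoter.

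The DNA between the annotated starts of 6 head-to-head pairs is shown because these pairs carry the main patterns: the histone pairs lost accessibility at 24 h, Ifit1bl2/Ifit1 gained it with TNF, Sarnp/Ormdl2 had the smallest p for a gain between 72 h and 1 week, and Psmb9/Tap1 is an interferon-regulated pair that missed the threshold for TNF. Sequences are the plus strand of GRCm38.p6 (RefSeq). Capitals mark CCAAT or its reverse complement ATTGG, the GC box GGGCGG or CCGCCC, the TATA box TATAAA, the octamer ATTTGCAT, and the interferon response element core AAACNGAAA or its reverse complement, each searched on both strands. The lines give, in order, chr13:22035643-22035821, chr13:23571220-23571400, chr13:23574207-23574381, chr19:34640743-34640889, chr10:128821629-128821764 and chr17:34187330-34187556.
H2bc12/H2ac12: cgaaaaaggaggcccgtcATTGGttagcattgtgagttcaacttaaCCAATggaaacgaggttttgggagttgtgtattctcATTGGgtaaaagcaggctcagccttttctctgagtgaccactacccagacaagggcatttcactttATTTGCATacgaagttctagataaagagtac
H2ac8/H2bc8: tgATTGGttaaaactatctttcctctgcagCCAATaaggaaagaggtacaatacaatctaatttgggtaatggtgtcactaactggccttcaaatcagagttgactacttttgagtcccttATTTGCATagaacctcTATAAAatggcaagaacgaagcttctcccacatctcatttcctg
H2ac7/H2bc7: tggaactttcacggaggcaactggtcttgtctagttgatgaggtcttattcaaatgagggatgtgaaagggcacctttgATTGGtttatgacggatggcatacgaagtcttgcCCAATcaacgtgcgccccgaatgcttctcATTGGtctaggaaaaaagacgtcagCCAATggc
Ifit1bl2/Ifit1: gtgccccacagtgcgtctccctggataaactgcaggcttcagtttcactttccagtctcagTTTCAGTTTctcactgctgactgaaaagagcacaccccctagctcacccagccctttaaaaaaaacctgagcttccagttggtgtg
Sarnp/Ormdl2: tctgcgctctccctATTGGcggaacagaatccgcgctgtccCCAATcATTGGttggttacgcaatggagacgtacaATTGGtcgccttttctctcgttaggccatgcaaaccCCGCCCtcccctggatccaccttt
Psmb9/Tap1: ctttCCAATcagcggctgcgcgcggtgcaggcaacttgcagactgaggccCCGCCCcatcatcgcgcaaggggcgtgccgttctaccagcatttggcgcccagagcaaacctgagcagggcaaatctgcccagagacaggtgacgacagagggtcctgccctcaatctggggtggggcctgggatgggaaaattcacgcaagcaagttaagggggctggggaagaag
The genes read to the right along these lines were H2bc12, H2bc8, H2ac7, Ifit1, Sarnp and Tap1. The histone stretches held 3, 2 and 4 CCAAT boxes, and those of H2bc12/H2ac12 and H2ac8/H2bc8 also held 1 octamer each. Their CpG counts were 4, 1 and 7, against 1 for Ifit1bl2/Ifit1, 9 for Sarnp/Ormdl2 and 12 for Psmb9/Tap1. A match of letters is a description and not a shown binding site. Forms of the interferon response element other than AAACNGAAA were not searched and are not marked.

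Strand was known for both genes at 910 of the 1199 peaks. Of these, 692 (76.0%) were head-to-head, 145 head-to-tail and 43 tail-to-tail, with 20 pairs of heads on the same strand, 9 of a head beside a tail on opposite strands and 1 of a pair of tails on the same strand. Among the single-gene peaks with a known strand, 91.5% lay at a head (6890 peaks) and the other 636 at a tail. The genes overlapped at 374 shared peaks and were apart at 825. At head-to-head peaks the distance between the starts, overlapping or apart, had a median of 102.5 bp (quartiles 42.75 and 236 bp). Shared peaks made up 2.5% of the peaks on chromosome 17 (89 of 3563) and 0.909% of those on chromosome 1.

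Promoters of head-to-head pairs differed in sequence from single-gene heads. Sequences were the 300 bases from 250 before to 50 after a start. The observed over expected CpG ratio had a median of 0.862 at 508 head-to-head peaks, 0.776 at 6520 single-gene heads and 0.597 over 16457 promoters in all. Head-to-head peaks gave 1 promoter for each peak, and the other sets 1 for each gene. The start was matched to the gene end at head-to-head peaks and, more loosely, to the peak centre at single-gene heads. A ratio of at least 0.6 was found at 92.7% of head-to-head peaks, 76.1% of single-gene heads and 49.8% of all promoters. The ETS motif CCGGAAGT, bound by factors of the Ets family, was present in 14.8%, 7.68% and 5.44% of these 3 sets, and the YY1 motif AGATGGCG in 6.30%, 3.77% and 2.55%. The CRE TGACGTCA stood at 5.12%, 3.60% and 2.40% and the NRF1 motif GCATGCGC at 6.69%, 6.07% and 3.66%. CCAAT was found in 43.9%, 40.0% and 39.1%, and the GC box in 69.9%, 69.1% and 47.3%. TATAAA was rarer than in promoters at large, at 5.31%, 6.73% and 13.5%, and ATTTGCAT stood at 0.984%, 1.58% and 1.74%. The NF-kB sites GGACTTTCC and GGAATTTCC occurred in 0.591% and 0% of head-to-head peaks, 0.429% and 0.322% of single-gene heads, and 0.365% and 0.346% of all promoters. AAACNGAAA stood at 1.18%, 1.79% and 2.07%.

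Values are reads in a peak divided by a size factor set by the authors for each library, here called normalised reads. Reads in peaks ran from 28636739 to 39349111 in NSPs and from 9640256 to 25165008 in the other 16 libraries, and replicates had Spearman correlations of 0.961 to 0.995 across peaks, with the lowest in NSPs, where replicate 1 stood apart from the other two at many peaks. Of the marker genes of each cell type, 4 of 5 for neural stem cells, 6 of 7 for astrocytes, 3 of 4 for neurons and 1 of 4 for microglia had a peak at a gene end, and none of 4 for oligodendrocytes or 3 for endothelium. The summed level over the neural stem markers was 4269 to 4770 in NSPs, 1659 to 2007 at 72 h and 2245 to 2358 at 1 week. That of the astrocyte markers was 1353 to 1507 in NSPs, 1560 to 1671 at 72 h, 1165 to 1237 at 72 h with TNF and 1161 to 1308 at 1 week, so that at 1 week it lay below every NSPs library. The microglial gene was at 77.1 to 86.2 in NSPs and at most 42.9 at 1 week. The part of these markers in the results below was not tested. Within the neural stem list the mean fell from NSPs to 1 week at Hes5, from 1976 to 93.0, and at Fabp7, from 768.6 to 450.3. It rose at Nes, from 434.7 to 471.0, and at Sox2, from 1258 to 1280. Within the astrocyte list the means moved in different directions from NSPs to 1 week, from 107.6 to 257.9 at Gfap, 251.2 to 329.9 at Slc1a3 and 91.8 to 148.1 at Gja1, but from 561.7 to 177.7 at S100b, 319.1 to 250.2 at Slc1a2 and 89.3 to 68.1 at Aldh1l1.

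The names of the 10 libraries at 72 h, at 72 h with TNF and at 1 week carry the tag Luc, and those of the other 9 do not. What the tag means is not stated. At 212 peaks the tagged libraries held at most 3 reads each and the untagged ones at least 20. Of these, 9 were shared gene-end peaks, with at most 1 read in any tagged library. Trmt2a/Ranbp1, a tRNA methyltransferase beside a regulator of the GTPase Ran, had 814 to 1557 normalised reads in untagged libraries and Slc25a32/Dcaf13, which includes the mitochondrial folate carrier, had 1144 to 2137. Both were at 2.20 or below in every tagged library. The others included Arvcf/Tango2, Ppp1ca/Rad9a, Gpha2/Ppp2r5b, Map4k2/Men1, Zcchc17/Snrnp40 and LOC108167694/Gm20783. Tag and group cannot be told apart for them, no fold is given, and counts at the tagged times are also given without them.

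Shared peaks were more open than single-gene peaks in all 19 libraries. The mean log2(normalised reads + 1) over shared peaks was 9.10 ± 0.10 (SD, n = 3) in NSPs, 8.84 ± 0.10 (SD, n = 3) at 24 h, 8.72 ± 0.07 (SD, n = 3) at 72 h and 9.17 ± 0.03 (SD, n = 4) at 1 week. It lay above that of single-gene peaks by 0.617 to 0.654 in NSPs, 0.597 to 0.619 at 24 h, 0.575 to 0.606 at 24 h with TNF, 0.605 to 0.653 at 72 h, 0.639 to 0.676 at 72 h with TNF and 0.779 to 0.807 at 1 week. The 1 week libraries stood above all others in this offset. The share of all reads in peaks that fell in shared peaks was 5.39% to 5.51% at 1 week and 4.95% to 5.44% in NSPs, and 4.39% to 5.00% in the other 12 libraries. These shares depend on no scaling between libraries.

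Most of the offset belonged to head-to-head peaks. Their mean log2 level was 9.44 ± 0.13 (SD, n = 3) in NSPs, 9.14 ± 0.12 (SD, n = 3) at 24 h, 9.04 ± 0.09 (SD, n = 3) at 72 h and 9.54 ± 0.03 (SD, n = 4) at 1 week. In the same libraries they stood above single-gene heads by 0.680 to 0.756 in NSPs and by 0.886 to 0.921 at 1 week. Head-to-tail peaks were lower, from 8.31 to 8.81 over the 19 libraries. Tail-to-tail peaks ranged from 6.10 to 6.71, which is -0.190 to 0.227 from single-gene tails, so that in this comparison the sign differed between libraries.

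**Figure D1:**
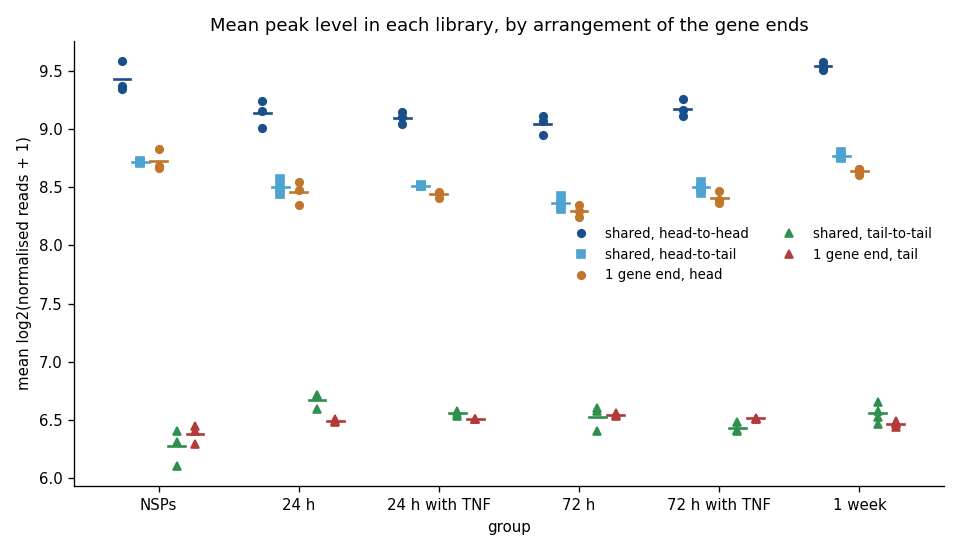
Each point is a library, placed by group along the horizontal axis and by its mean log2(normalised reads + 1) over the peaks of a class along the vertical axis, and short lines are group means. Head-to-head peaks lay above every other class in all 19 libraries, between 8.95 and 9.59, and both tail classes lay below 7.

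In the first 24 h of differentiation, shared peaks mostly lost accessibility. Of 1191 shared peaks tested, 543 (45.6%) fell and 29 (2.43%) rose against NSPs (limma, adjusted p under 0.05), where over all 88919 peaks 23% fell and 24.2% rose. Their median log2 change was -0.29, against -0.07 over all peaks. Single-gene peaks showed 41.8% lower and 4.72% higher of 9401. The count of shared peaks that fell was 330 without 24 h replicate 3, and 264 when only the 24 h and NSPs libraries were fitted. All comparisons with NSPs use the same 3 NSPs libraries and are not independent of each other.

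The arrangement of the genes went with the direction. Of 688 head-to-head peaks 353 fell and 7 rose at 24 h, and of 144 head-to-tail peaks 55 fell and 6 rose. Of 43 tail-to-tail peaks, in contrast, 13 rose and 4 fell. Single-gene tails were divided as 21.2% higher and 19.9% lower of 622, and single-gene heads as 2.98% and 44.4% of 6841. The difference between classes was not tested, since peaks are not replicates.

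Losses outnumbered gains at 24 h with TNF and at 72 h as well. With TNF at 24 h 651 shared peaks (54.7%) were lower and 39 (3.27%) higher than in NSPs, against 25.5% and 26.5% of all peaks. At 72 h 697 (58.5%) were lower and 59 (4.95%) higher, against 30.9% and 28.3%. With TNF at 72 h the counts were 513 (43.1%) and 79 (6.63%), against 30.9% and 29.1%. The median log2 changes were -0.33, -0.37 and -0.24. Without the 9 peaks that were empty in tagged libraries, 688 were lower and 59 higher at 72 h.

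At 1 week the balance had turned. Against NSPs 411 shared peaks (34.5%) were higher and 159 (13.4%) lower, where 33.7% of all peaks were higher and 33.6% lower. Against 72 h 909 (76.3%) rose and 15 (1.26%) fell, with a background of 22.5% and 16.2%, and their median log2 change was 0.51 against 0.02 over all peaks. Of the single-gene peaks 58.1% rose and 5.38% fell in this comparison. Among head-to-head peaks 575 of 688 rose (83.6%) and 3 fell, and among head-to-tail peaks 106 rose and 3 fell. Single-gene heads also mostly rose, with 4351 of 6841 higher (63.6%) and 272 lower. Among 43 tail-to-tail peaks 9 rose and 5 fell, and among 622 single-gene tails 112 rose and 102 fell. An F test over the 6 groups called 1107 shared peaks (92.9%), where it called 85% of all peaks and 89.2% of single-gene peaks.

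**Figure D2:**
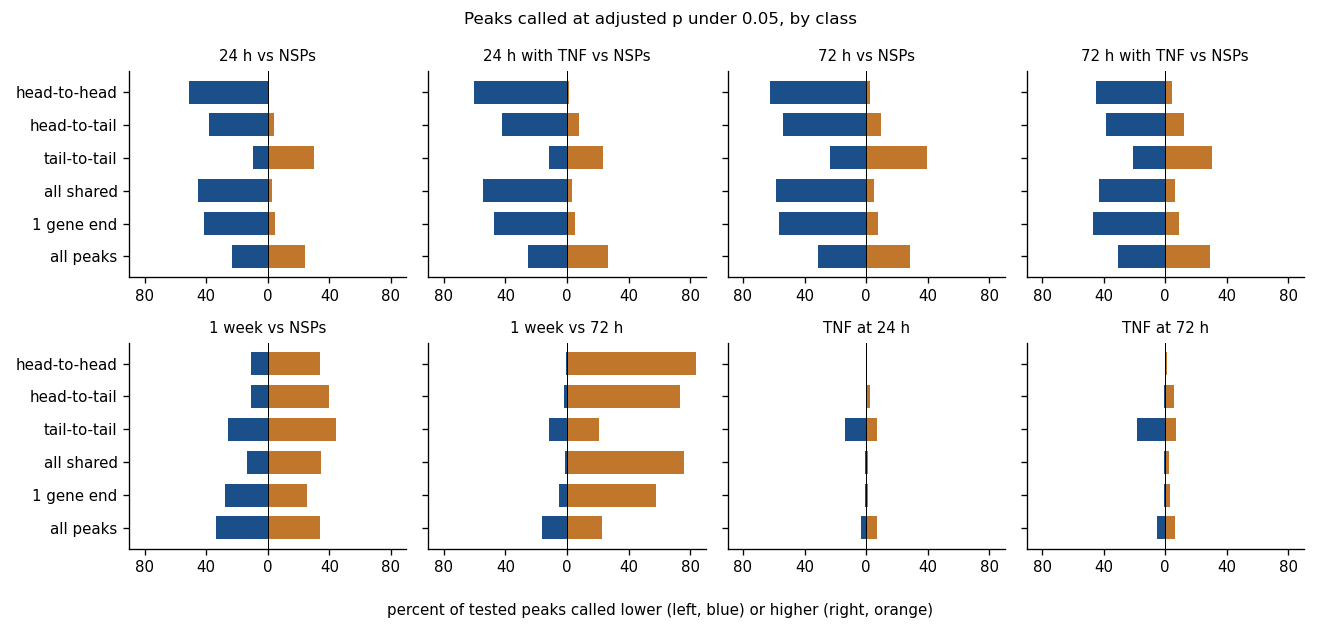
Bars give the percent of tested peaks called lower (left) and higher (right) at an adjusted p under 0.05 in each of 8 comparisons, for 3 arrangements of shared peaks, all shared peaks, single-gene peaks and all peaks. At 24 h 45.6% of shared peaks were lower, and from 72 h to 1 week 76.3% were higher, while tail-to-tail peaks were not mostly lower at 24 h.

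The comparison of 24 h with NSPs and that of 1 week with 72 h have no library in common. Among shared peaks 474 fell in the former and rose in the latter, which is 87.3% of the 543 that fell and 52.1% of the 909 that rose. Over single-gene peaks these shares were 70.6% and 50.7%, and over all peaks 27.7% and 28.3%. Over head-to-head peaks they were 89.5% and 55.0%. Whatever their course at 24 h, 76.3% of shared, 83.6% of head-to-head, 58.1% of single-gene and 22.5% of all peaks rose later. At 24 h 45.6%, 51.3%, 41.8% and 23.0% of these classes fell.

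**Figure D3:**
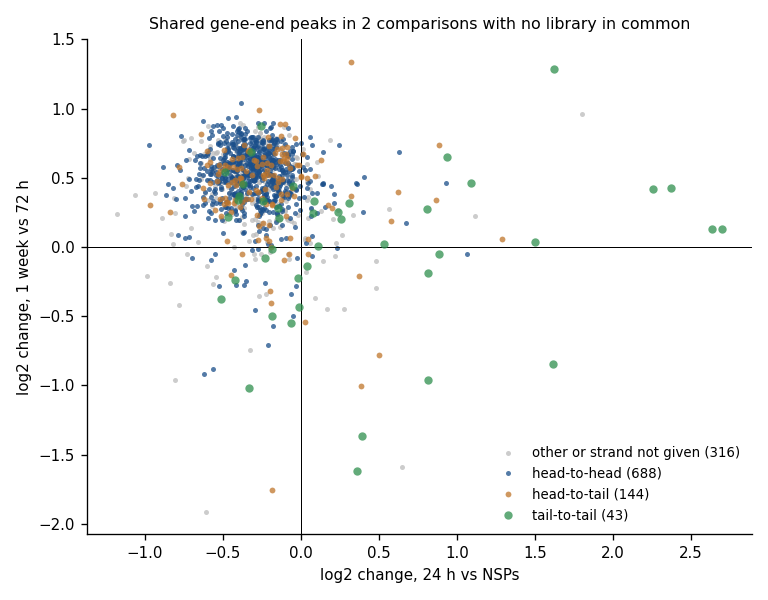
Each point is a shared gene-end peak, placed by its log2 change from NSPs to 24 h (horizontal) and from 72 h to 1 week (vertical), and coloured by arrangement. Head-to-head peaks crowded into the upper left quadrant, while tail-to-tail peaks were spread widely and included those with the highest changes at 24 h, up to 2.70.

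How far the shared peaks moved as a set depended on the scaling of the libraries. The deposited size factors left the median change of all peaks near 0. As an alternative each library was scaled to the same total of reads in peaks, here called equal total reads. Reads outside peaks were not part of this total. It gave medians of all peaks of -0.313 for 1 week against 72 h, 0.115 at 24 h and 0.206 at 72 h, in place of 0.02, -0.07 and -0.06. A factor for each library shifts all its peaks almost alike on the log2 scale. The difference of medians between shared and all peaks could therefore hardly change, and its stability is no check. That difference was -0.213 with the deposited values and -0.211 with equal totals at 24 h, and 0.489 and 0.481 for 1 week against 72 h. The split of calls nevertheless changed. With equal totals 59 shared peaks were higher and 205 lower at 24 h, 65 and 279 at 24 h with TNF, 162 and 381 at 72 h, 184 and 297 at 72 h with TNF, and 401 higher and 53 lower for 1 week against 72 h.

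A loess curve on peak level, fitted in each library after the data had been seen, removed more. It left differences of medians of -0.0669 at 24 h and 0.0513 for 1 week against 72 h. The counts were then 85 higher and 235 lower at 24 h, 93 and 272 at 24 h with TNF, 205 and 359 at 72 h, 212 and 304 at 72 h with TNF, 278 and 284 at 1 week against NSPs, and 111 and 29 for 1 week against 72 h. This curve takes away any change shared by peaks of similar level, and shared peaks are mostly strong ones.

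**Figure D4:**
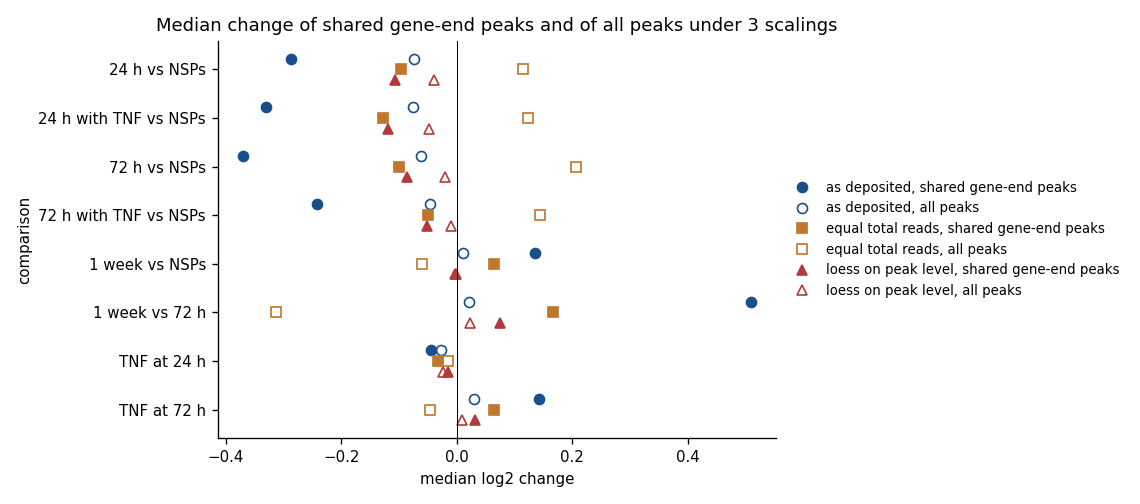
Points give the median log2 change of shared gene-end peaks (filled) and of all peaks (open) in 8 comparisons under 3 scalings. For 1 week against 72 h the shared peaks lay to the right of all peaks by 0.489 with the deposited scaling, 0.481 with equal total reads in peaks and 0.0513 after loess. The values 0.489 and 0.481 could hardly differ, since a factor for each library shifts all its peaks almost alike.

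Peak level and direction moved together in both kinds of peak. Among shared peaks with a mean log2 level under 7, 10 rose and 9 fell of 94 at 24 h, and 9 rose and 11 fell of 94 from 72 h to 1 week. Between 8 and 9, 4 rose and 148 fell of 312 at 24 h, and 231 rose and none fell later. At a level of 10 or more, 48.4% of 256 fell at 24 h with none higher, and all 256 rose from 72 h to 1 week. Single-gene peaks of that top level behaved likewise, with 658 of 1202 lower and 10 higher at 24 h and 1191 higher later. The part of level in the difference between the classes was not tested further.

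Within the head-to-head peaks, the counts were also taken by distance and by sequence. With starts at most 100 bp apart 51.8% of 340 fell at 24 h and 82.4% rose from 72 h to 1 week, at over 100 and up to 300 bp 52.9% of 244 and 86.1%, and farther apart 46.2% of 104 and 81.7%. By sequence, with a CpG ratio of at least 0.6, 50.7% of 467 fell at 24 h and 84.4% rose later, and below it 40.5% of 37 and 64.9%. Peaks with CCAAT fell in 57.0% of 221 cases and those without in 44.5% of 283, and their mean log2 levels were 9.58 and 9.01. Those with the ETS motif fell in 53.3% of 75 cases, those without in 49.4% of 429. All 32 with the YY1 motif rose from 72 h to 1 week, as did 81.8% of the 472 without it, and their mean log2 levels were 9.42 and 9.25.

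The replication-dependent histone genes gave the most uniform loss. Their H2A and H2B genes, which supply the core of new nucleosomes during DNA replication, stand head-to-head in pairs. Of 13 shared peaks at genes on the histone list 11 were tested, and all 11 fell at 24 h with a median log2 change of -0.76. All 11 were also lower at 24 h with TNF and at 72 h, 9 at 72 h with TNF and 5 at 1 week, each against NSPs. With equal total reads 9 of 11 fell at 24 h, and with loess also 9. Of 36 single-gene peaks at histone genes 33 fell at 24 h, with a median of -0.77. The peaks H2bc23/H2ac23 and H2ac24/H4bc24 held at most 1 and 2 reads in any library and were not tested. Reads from near-identical histone copies may have been divided between them, so single values are less certain.

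H2bc12/H2ac12 (chr13:22035521-22036021) held 1073, 1542 and 1559 normalised reads in the 3 NSPs libraries, 800.4, 763 and 769.8 at 24 h, 731, 756 and 790.3 at 72 h and 1039, 976, 1032 and 1045 at 1 week. Every library at 24 h and 72 h lay below every NSPs library, and the 1 week libraries lay between. The log2 change was -0.82 ± 0.12 (SE, adjusted p = 1.1e-06) at 24 h, -0.42 ± 0.11 (SE, adjusted p = 0.0011) at 1 week against NSPs, and 0.43 ± 0.11 (SE, adjusted p = 0.0025) for 1 week against 72 h. NSPs replicate 1 was nearest to the differentiated libraries. Peaks named for the smallest p were taken only where the groups of that comparison did not overlap, so non-overlap there is no separate evidence.

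At H2ac8/H2bc8 (chr13:23571042-23571542) the values were 731, 1228 and 1206 in NSPs, 526, 572 and 475 at 24 h, 534, 611 and 530.2 at 72 h and 877, 971, 992 and 891 at 1 week. It fell by 0.97 ± 0.14 (SE, adjusted p = 1.7e-06) on the log2 scale at 24 h and rose by 0.74 ± 0.13 (SE, adjusted p = 7.6e-05) from 72 h to 1 week, where it no longer differed detectably from NSPs (-0.14, adjusted p = 0.36). H2ac7/H2bc7 (chr13:23574078-23574578) held 848, 1139 and 1070 in NSPs and 561, 619.6 and 503 at 24 h, without overlap, with a log2 change of -0.85 ± 0.13 (SE, adjusted p = 3.7e-06). At H2ac15/H2bc15 the loss was still present at 1 week (-0.97 ± 0.13, SE, adjusted p = 8.9e-08), whereas H2bc22/H2ac22 was not called there (0.13, adjusted p = 0.3).

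Other pairs with the smallest p among losses at 24 h were Kif21a/Gm52215 and Mfsd13b/Cdr2. Kif21a/Gm52215, at the start of a kinesin motor gene, held 1198, 897 and 949 in NSPs and 536, 522 and 522 at 24 h (log2 change -0.93 ± 0.12, SE, adjusted p = 2.6e-07). Mfsd13b/Cdr2 held 1061, 888 and 930.3 in NSPs and 621, 612 and 533 at 24 h (-0.70 ± 0.10, SE, adjusted p = 2.6e-06). In both, the groups did not overlap, which was a condition for naming them.

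The 5 gains at 24 h with the smallest p all lay where genes end tail-to-tail. Pdia6/Atp6v1c2 (chr12:17284680-17285180) is the meeting point of a protein disulphide isomerase gene and a gene for a subunit of the vacuolar proton pump, whose annotated ends overlap by 64 bp. It held 63.7, 59.4 and 53.8 normalised reads in NSPs, 353, 274 and 307 at 24 h, 421, 403 and 384 at 72 h, and 529, 567, 581 and 488 at 1 week. Each step lay above all NSPs libraries, with log2 changes of 2.38 ± 0.13 (SE, adjusted p = 8.5e-15) at 24 h and 3.18 ± 0.12 (SE, adjusted p = 2.8e-19) at 1 week. With TNF it was lower, at 177, 214 and 187 at 24 h and 267, 256 and 275 at 72 h, and no TNF library overlapped its untreated group (-0.69 ± 0.13, SE, adjusted p = 0.00065, and -0.60 ± 0.13, SE, adjusted p = 0.0026).

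Ndufb10/Rps2 (chr17:24721926-24722426), between a gene for a complex I subunit and one for a protein of the small ribosomal subunit, behaved alike. Its values were 16.4, 25.4 and 19.3 in NSPs, 121, 119 and 172 at 24 h, 165, 203 and 249.8 at 72 h and 215, 206, 229 and 243 at 1 week. With TNF they were 37.1, 61.4 and 69.6 at 24 h and 51.9, 60.6 and 40.8 at 72 h, below every untreated library of the same time. The log2 change was 2.70 ± 0.24 (SE, adjusted p = 1.5e-10) at 24 h against NSPs, and -1.31 ± 0.24 (SE, adjusted p = 0.00035) and -1.99 ± 0.24 (SE, adjusted p = 1.2e-06) with TNF at 24 h and 72 h.

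Poldip2/Tnfaip1 held 37.4, 28.3 and 21.9 in NSPs and 108, 127 and 202 at 24 h (2.26 ± 0.22, SE, adjusted p = 1.9e-09). Kif7/Ticrr, where a regulator of hedgehog signalling meets a replication initiation factor, rose from 9.35, 5.65 and 3.99 in NSPs to 37.6, 50.2 and 40.6 at 24 h and 112, 84.9, 129.8 and 105 at 1 week (2.63 ± 0.28, SE, adjusted p = 9.2e-09, at 24 h). Cldn22/Wwc2 held 71.9, 69.7 and 72.4 in NSPs and 207, 169.6 and 243 at 24 h (1.51 ± 0.17, SE, adjusted p = 1.5e-08). None of these 3 was called for TNF at either time. With equal total reads 14 of the 43 tail-to-tail peaks rose at 24 h and none fell, and with loess 13 rose and 2 fell.

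DNA repair and replication genes, the textbook group of bidirectional promoters, accounted for 34 tested shared peaks. At 24 h 20 of the 34 (58.8%) fell and none rose, with a median log2 change of -0.33. From 72 h to 1 week 28 (82.4%) rose and none fell, with a median of 0.54. Over all shared peaks 45.6% fell at 24 h, with a median of -0.29, and 76.3% rose later, with a median of 0.51. Single-gene peaks of the same list showed 39 lower and 2 higher of 58 at 24 h and 39 higher and 1 lower later. With equal total reads the counts of shared peaks were 9 lower and 1 higher at 24 h and 15 higher later, and with loess 8 lower and 1 higher, and 3 higher. Cds2/Pcna, at the gene for the sliding clamp of DNA polymerases, fell by 0.45 ± 0.12 (SE, adjusted p = 0.0026) at 24 h and rose by 0.55 ± 0.11 (SE, adjusted p = 0.00027) from 72 h to 1 week. Ap4m1/Mcm7, at a gene of the replicative helicase, changed by -0.41 (adjusted p = 0.013) and 0.65 (adjusted p = 0.00017). Rad51c/Tex14, at a recombination gene, changed by -0.87 ± 0.18 (SE, adjusted p = 0.00019) at 24 h.

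Pairs known from textbooks followed this course with different strength. Prkdc/Mcm4, which joins the DNA-dependent protein kinase to a helicase subunit, held 1904, 1443 and 1550 in NSPs, 1345, 1210 and 1100 at 24 h, 1024, 1162 and 1188 at 72 h, and 1907, 1765, 1994 and 1853 at 1 week. The values at 24 h and 72 h lay below all of NSPs, and those at 1 week above all of 72 h (-0.42 ± 0.12, SE, adjusted p = 0.004, at 24 h, and 0.74 ± 0.11, SE, adjusted p = 6.7e-06, for 1 week against 72 h). Tmem258/Fen1, at the flap endonuclease gene, fell at 24 h by 0.70 ± 0.15 (SE, adjusted p = 0.00028), and Tsc2/Nthl1, a growth regulator beside a DNA glycosylase, by 0.66 ± 0.14 (SE, adjusted p = 0.00032). Tsc2/Nthl1 was still lower at 1 week (-0.63 ± 0.13, SE, adjusted p = 0.00013).

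Npat/Atm joins the activator of histone transcription to the kinase of the DNA break response. It held 3075, 2034 and 2180 in NSPs and 2164, 2261 and 1833 at 24 h, which overlap (-0.20, adjusted p = 0.19), then 1809, 1773 and 1931 at 72 h and 2914, 2827, 3327 and 2918 at 1 week (0.70 ± 0.12, SE, adjusted p = 3.1e-05, for the last step). The high NSPs library was replicate 1. Osgep/Apex1, at the gene of a base excision repair endonuclease, was likewise not called at 24 h (-0.18, adjusted p = 0.22), and rose from 72 h to 1 week by 0.90 ± 0.11 (SE, adjusted p = 7.9e-07). Xpc/Lsm3 (-0.45, adjusted p = 0.021), Mutyh/Toe1 (-0.29, adjusted p = 0.015), Ap4b1/Dclre1b (-0.35, adjusted p = 0.025) and Alkbh2/Ung (-0.28, adjusted p = 0.049) passed the threshold at 24 h, with overlap between the groups in Xpc/Lsm3 and Alkbh2/Ung.

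Hspe1/Hspd1, the pair of mitochondrial chaperonin genes, held 2330, 1351 and 1484 in NSPs, 1510, 1446 and 1208 at 24 h, 874, 886 and 1113 at 72 h, and 1755, 1718, 1840 and 1787 at 1 week. The loss was called at 72 h (-0.81 ± 0.15, SE, adjusted p = 3.3e-05) but not at 24 h (-0.27, adjusted p = 0.13), and the gain to 1 week was 0.90 ± 0.14 (SE, adjusted p = 1.5e-05). Paics/Ppat, of purine synthesis, changed by -0.39 (adjusted p = 0.016) at 24 h, and Sirt3/Psmd13 by -0.42 (adjusted p = 0.0037). Trp53/Wrap53, at the p53 gene, changed by -0.36 (adjusted p = 0.039) at 24 h and by -0.13 (adjusted p = 0.45) from 72 h to 1 week. U2af1l4/Psenen, at a gamma-secretase gene, was not called at 24 h (-0.18, adjusted p = 0.28) and rose from 72 h to 1 week by 0.51 (adjusted p = 0.0018), while Hars2/Hars, a pair of histidyl-tRNA synthetases, gave -0.20 (adjusted p = 0.2) and 0.47 (adjusted p = 0.0029).

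Col4a2/Col4a1, the head-to-head genes of basement membrane collagen IV, went against the return at 1 week. The peak held 267, 254 and 247 in NSPs, 162, 207 and 169 at 24 h, 135, 119.6 and 130.0 at 72 h, and 115, 129, 88.0 and 94.4 at 1 week. It was lower than NSPs without overlap at each time, with -0.52 ± 0.16 (SE, adjusted p = 0.0081), -0.99 ± 0.16 (SE, adjusted p = 4.6e-06) and -1.28 ± 0.15 (SE, adjusted p = 1.3e-08). Surf2/Surf1, of the surfeit cluster, differed again, with no call at 24 h (0.06, adjusted p = 0.76) and a gain at 1 week against NSPs (0.59 ± 0.13, SE, adjusted p = 0.00022).

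Most peaks of mitochondrial and translation genes were not called at 24 h, those called were mostly lower, and most were higher later. Of 32 tested shared peaks at genes of the mitochondrial ribosome 9 fell and 1 rose at 24 h, and 24 rose from 72 h to 1 week. Of 28 at respiratory chain genes 11 fell and 2 rose at 24 h, and 21 rose later, of 14 at tRNA synthetase genes 5 fell, and 11 rose and 1 fell later, and of 7 at proteasome genes 4 fell and all 7 rose later. The shares that fell at 24 h, 28.1%, 39.3%, 35.7% and 57.1%, stand beside 45.6% of all shared peaks and 23.0% of all peaks. At 24 h 2.43% of all shared peaks and 24.2% of all peaks rose. The shares that rose later, 75%, 75%, 78.6% and 100%, stand beside 76.3% of all shared peaks and 22.5% of all peaks. With equal total reads the later gains numbered 10, 6, 5 and 1 in this order of lists, and after loess 2, 4, 1 and 1. Single-gene peaks of these 4 lists gave 9 lower and 1 higher of 39, 11 and 3 of 53, 9 and none of 20, and 9 and none of 28 at 24 h. 1700007K13Rik/Mrps2 was the single riser among the mitochondrial ribosome peaks at 24 h (0.40, adjusted p = 0.0088, and 1.31 ± 0.12, SE, adjusted p = 4.1e-11, at 1 week against NSPs). Mrps12/Sars2 was not called at 24 h (-0.20, adjusted p = 0.092) and rose from 72 h to 1 week by 0.65 ± 0.09 (SE, adjusted p = 4.5e-06). Yars/S100pbp (-0.88, adjusted p = 0.0011) and Psma7/Ss18l1 (-0.64, adjusted p = 0.00049) fell at 24 h.

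The pairs with the smallest p from 72 h to 1 week were all head-to-head. Sarnp/Ormdl2 (chr10:128821501-128822001), between an mRNA export factor and a regulator of sphingolipid synthesis, held 928, 1028 and 1039 at 72 h and 1767, 1886, 1851 and 1833 at 1 week, a log2 change of 0.88 ± 0.10 (SE, adjusted p = 1.6e-07). It had been 1505, 1391 and 1510 in NSPs and 1102, 1021 and 914 at 24 h. The 1 week libraries thus stood above all others. Snx5/Mgme1, with a mitochondrial exonuclease, rose by 0.88 ± 0.10 (SE, adjusted p = 2.2e-07) and Mmachc/Ccdc163, with a cobalamin processing enzyme, by 0.84 ± 0.09 (SE, adjusted p = 2.3e-07).

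Among the 15 losses in the same comparison, Denn2b/Akip1 held 283, 283 and 298 at 72 h and 173, 147, 156 and 149 at 1 week (-0.88 ± 0.13, SE, adjusted p = 9.2e-06). Dennd6b/Plxnb2, with a semaphorin receptor, fell by 1.01 ± 0.18 (SE, adjusted p = 5.7e-05), and Flad1/Lenep, with FAD synthase, by 1.76 ± 0.34 (SE, adjusted p = 0.00019). In all 3 the groups did not overlap, which was a condition for naming them.

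TNF moved few shared peaks. At 24 h 11 of 1191 rose (0.924%) and 7 fell with TNF, against 7.06% and 3.53% of all peaks and 1.54% and 0.713% of single-gene peaks. At 72 h 26 rose and 12 fell, against 6.24% and 5.55% of all peaks and 3.12% and 1.07% of single-gene peaks. Fitting only the groups compared gave 14 losses at 24 h and 64 gains at 72 h. The counts also rested on single libraries. At 24 h the gains numbered 7 without 24 h replicate 1, without 24 h with TNF replicate 1 or without 24 h with TNF replicate 3, and the losses 15 without NSPs replicate 1, 4 without 24 h replicate 1 or 2, and 3 without 24 h with TNF replicate 3. At 72 h the gains numbered 73 without NSPs replicate 1, 9 without 72 h replicate 1, 15 without 72 h with TNF replicate 2 and 12 without 72 h with TNF replicate 3.

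Head-to-head peaks took little part. Of 688 tested 1 rose (0.145%) and none fell with TNF at 24 h, and 6 rose (0.872%) and none fell at 72 h. Single-gene heads were also seldom called, with 1.11% higher and 0.322% lower at 24 h and 2.81% and 0.643% at 72 h. Of 43 tail-to-tail peaks 3 rose and 6 fell at 24 h, and 3 rose and 8 fell at 72 h, while single-gene tails gave 36 higher and 27 lower of 622 at 24 h and 28 and 42 at 72 h. Of 144 head-to-tail peaks 4 rose at 24 h, and 8 rose and 1 fell at 72 h. The TNF comparisons at 24 h and 72 h share no library. In all, 6 shared peaks rose at both times (54.5% of 11 and 23.1% of 26) and 6 fell at both (85.7% of 7 and 50% of 12). For gains these shares were 49.7% and 24.6% over single-gene peaks and 51.7% and 58.5% over all peaks. For losses they were 43.3% and 28.7%, and 52.7% and 33.5%.

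Asb6/Ntmt1 (chr2:30823214-30823714) had the smallest p for TNF. A ubiquitin ligase adaptor gene and the gene for an N-terminal methyltransferase end 64 bp apart near it. Its centre lay 367 and 431 bp from these ends, to the same side of both, so the peak covered neither. It held 726, 652 and 596 normalised reads at 24 h and 1724, 2020 and 1750 with TNF, and 309, 281 and 366 at 72 h and 1029, 1184 and 1199 with TNF. Every treated library stood above every untreated one of its time, by 1.48 ± 0.13 (SE, adjusted p = 1.3e-08) and 1.84 ± 0.13 (SE, adjusted p = 2.6e-10) on the log2 scale. Without TNF the peak lost accessibility, from 695, 1040 and 1026 in NSPs to 346, 387, 389.5 and 355 at 1 week.

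Dcaf1/Rbm15b, a ubiquitin ligase receptor beside an RNA methylation cofactor, was weak without TNF, at 21.6, 19.2 and 30.8 at 24 h and 25.7, 33.5 and 24.2 at 72 h. With TNF it held 99.0, 90.5 and 122, and 110.0, 133 and 86.4. The groups did not overlap at either time, and the log2 changes were 2.09 ± 0.35 (SE, adjusted p = 0.00014) and 1.93 ± 0.35 (SE, adjusted p = 0.00033).

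Ifit1bl2/Ifit1 (chr19:34640571-34641071) was the 1 head-to-head peak that rose with TNF at 24 h. Ifit1 is an interferon-induced protein that binds viral RNA. The sequence between the starts, printed above, holds 1 match to AAACNGAAA, the only form of the interferon response element searched. The peak held 53.5, 42.8 and 30.8 at 24 h and 94.6, 85.1 and 85.2 with TNF, then 61.8, 70.6 and 79.0 at 72 h and 175, 143 and 149 with TNF. Treated libraries lay above untreated ones at both times, by 1.07 ± 0.22 (SE, adjusted p = 0.0013) and 1.14 ± 0.22 (SE, adjusted p = 0.0007). The Ifit genes are similar to each other, so reads may be divided between copies.

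Other gains at both times were Cavin4/Tmeff1 (1.12 ± 0.24, SE, adjusted p = 0.0018, at 24 h), Trex1/Atrip and Cebpd/Spidr. Trex1 encodes the nuclease that clears cytosolic DNA and Atrip a partner of the kinase ATR. Their peak held 562, 485 and 526 at 24 h and 717, 768 and 711 with TNF, and 669, 596 and 568 at 72 h and 835, 896 and 924 with TNF (0.48 ± 0.11, SE, adjusted p = 0.0029, and 0.54 ± 0.11, SE, adjusted p = 0.001). Cebpd/Spidr (chr16:15889438-15889938), at the gene for an inflammatory transcription factor, had means of 75.9 at 24 h and 140.6 with TNF, and 78.2 at 72 h and 122.5 with TNF (0.88 ± 0.21, SE, adjusted p = 0.0048, and 0.64 ± 0.21, SE, adjusted p = 0.039). The call at 72 h was lost with equal total reads (adjusted p = 0.084).

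A receptor and a ligand of the TNF superfamily were among the shared peaks that rose at 24 h. Hcfc1r1/Tnfrsf12a, at the tail of the gene for the TWEAK receptor, had means of 171 without and 270.7 with TNF (0.66 ± 0.15, SE, adjusted p = 0.0037). Tnfsf13/Tnfsf12, where the genes for APRIL and TWEAK meet, had means of 325.7 and 428 (0.40 ± 0.12, SE, adjusted p = 0.028). At 72 h neither was called (0.21, adjusted p = 0.41, and 0.24, adjusted p = 0.22). Flad1/Lenep rose by 1.35 ± 0.36 (SE, adjusted p = 0.014), Rin1/Brms1 by 0.77 ± 0.24 (SE, adjusted p = 0.038) and Atat1/Mrps18b by 0.38 ± 0.12 (SE, adjusted p = 0.035) at 24 h.

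Cmtm5/Il25 (chr14:54935839-54936339) had the smallest p among losses with TNF at 24 h. Cmtm5 encodes a membrane protein of the MARVEL family and Il25 a cytokine of the interleukin 17 family. The peak held 556, 564 and 443 at 24 h and 305, 325 and 237 with TNF, and 619, 586 and 533 at 72 h and 275, 302 and 306 with TNF, without overlap (-0.85 ± 0.12, SE, adjusted p = 2.7e-05, and -0.97 ± 0.12, SE, adjusted p = 3.8e-06). Aimp2/Eif2ak1, near the tail of a stress kinase gene, fell at both times by 0.46 ± 0.11 (SE, adjusted p = 0.0067 and 0.0063), and Ccdc74a/Med15, at a Mediator gene, by 1.19 ± 0.33 (SE, adjusted p = 0.016) and 1.25 ± 0.33 (SE, adjusted p = 0.011). The centre of the Aimp2/Eif2ak1 peak lay 367 and 380 bp from the gene ends, so the peak covered neither. R3hcc1l/Loxl4 sat at the threshold (adjusted p = 0.05 and 0.049). Alg1/Eef2kmt fell at 24 h alone among the calls (-0.59 ± 0.18, SE, adjusted p = 0.03, and 0.03, adjusted p = 0.94, at 72 h).

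**Figure D5:**
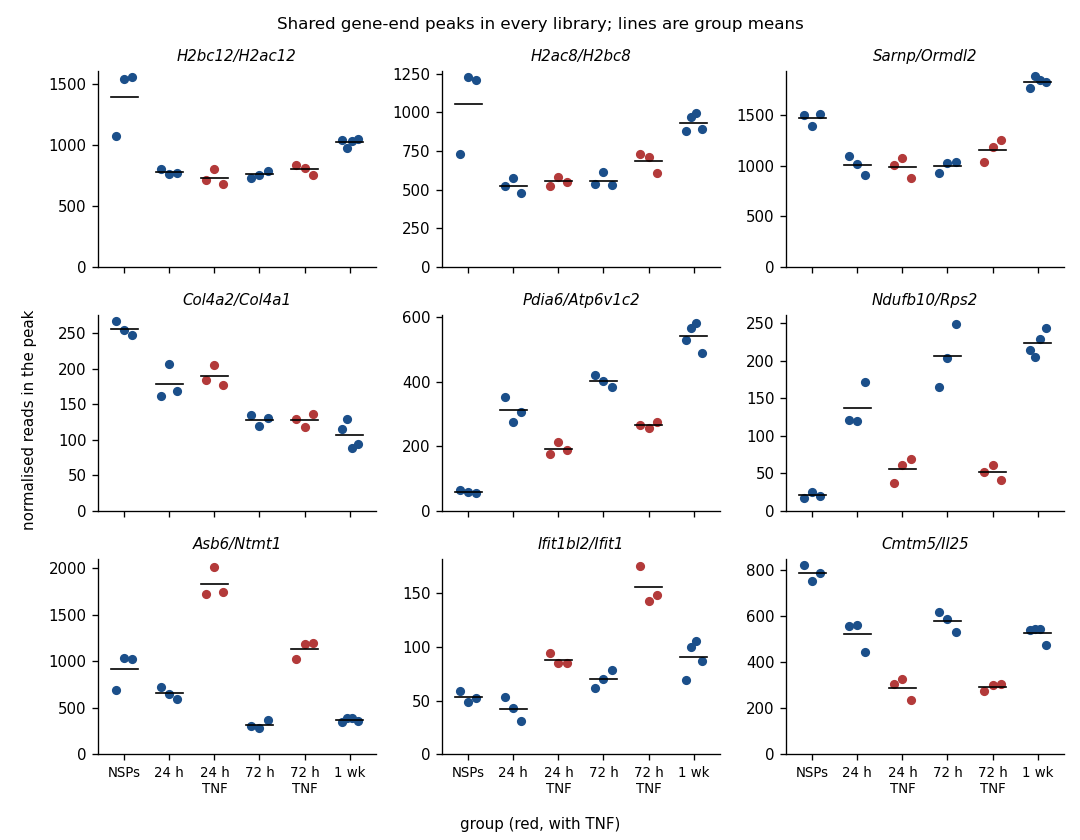
Normalised reads of 9 shared gene-end peaks in every library (points) with group means (lines), by group, with TNF groups in red. The histone pairs fell from NSPs to 24 h, Pdia6/Atp6v1c2 and Ndufb10/Rps2 rose with time and were lower with TNF, and Asb6/Ntmt1 reached 1724 to 2020 with TNF at 24 h.

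At 72 h the pairs that the naming rule added were Rhoc/Mov10 among gains and Otub1/Macrod1 among losses, both tail-to-tail. Rhoc/Mov10, at the gene of an antiviral RNA helicase, held 121, 132 and 130.0 without and 249, 231 and 226 with TNF (0.88 ± 0.16, SE, adjusted p = 0.00033). Otub1/Macrod1, at the gene of a deubiquitinase, held 65.6, 70.6 and 51.0 without and 23.2, 26.6 and 19.2 with TNF (-1.40 ± 0.30, SE, adjusted p = 0.0024). Neither pair of groups overlapped, which was a condition for naming them. Other calls at 72 h were Ceacam16/Gm19345 (1.13 ± 0.24, SE, adjusted p = 0.0016), H2-T22/Gm6034, at a class Ib MHC gene (0.40 ± 0.12, SE, adjusted p = 0.022, but 0.055 with equal total reads and 0.052 after loess), and, lower, Rxrb/Col11a2 (-0.78 ± 0.18, SE, adjusted p = 0.0043), Cxcr5/Bcl9l (-0.83 ± 0.19, SE, adjusted p = 0.0035) and Plcd4/Zfp142 (-0.96 ± 0.23, SE, adjusted p = 0.0061).

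The gains at 72 h were less stable than those at 24 h. All 11 gains at 24 h were called with edgeR, DESeq2, equal total reads and loess. Of the 26 gains at 72 h 24 were called with DESeq2, 19 with edgeR, 16 after loess and 15 with equal total reads. No shared peak passed for a difference between the TNF effects at 72 h and 24 h (limma, adjusted p under 0.05), as against 0.00112% of all peaks. At an unadjusted p under 0.05, 106 of 1191 were higher and 5 lower with limma, 91 and 6 with edgeR, and 109 and 6 with DESeq2, and neither of these tools made an adjusted call.

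Of the 67 genes on the inflammatory list 10 tested shared peaks were available. With TNF 1 of the 10 rose at 24 h and 1 at 72 h, in both cases Ifit1bl2/Ifit1, against 7 and 13 of 37 single-gene peaks of that list. Over all peaks 7.06% and 6.24% rose with TNF at these times. Against NSPs 2 of the 10 rose and 3 fell at 24 h, and 6 rose and 1 fell at 1 week. Over all peaks 24.2% rose and 23.0% fell at 24 h, and 33.7% rose and 33.6% fell at 1 week. With only 10 peaks, no difference from these shares was tested. Psmb9/Tap1, an immunoproteasome subunit beside the antigen peptide transporter, held 511, 543 and 594 at 24 h and 606, 585 and 533 with TNF (0.07, adjusted p = 0.8), and 606, 706 and 623 at 72 h and 806, 811 and 711 with TNF, which did not overlap but missed the threshold (0.27, adjusted p = 0.11). It rose with time, to 799.7, 805, 915 and 776 at 1 week (0.57 ± 0.10, SE, adjusted p = 1.2e-05, against NSPs). Irf9/Rnf31, at the gene for a subunit of the interferon-activated factor ISGF3, rose by 0.87 ± 0.18 (SE, adjusted p = 0.00019) at 24 h and 1.92 ± 0.17 (SE, adjusted p = 2.8e-11) at 1 week against NSPs, and Tapbp/Zbtb22, at the tapasin gene, by 0.58 ± 0.17 (SE, adjusted p = 0.0056) and 1.43 ± 0.16 (SE, adjusted p = 4e-09). Dtx3l/Parp9, an interferon-induced ligase pair, was not called with TNF at 24 h (0.31, adjusted p = 0.38).

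The limit of 500 bp did not mark a break. The 68 members whose second gene end lay 450 to 500 bp from the centre had median log2 changes of -0.312 at 24 h and 0.372 from 72 h to 1 week. The 69 peaks just outside, at over 500 to 550 bp, had -0.317 and 0.457, with median levels of 380.7 inside and 490.7 normalised reads outside.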

How the data were processed

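The authors deposited 1 table of peaks by library whose values are a signal: reads per peak divided by a size factor for each library. Whole reads could be recovered from 100% of these values at a tolerance of 1e-06, and no value was 0. The submitters' processing notes name FastQC, Trim Galore, Bowtie2, SAMtools, MACS2 and the build mm10; versions are not given in the sources used here. Counts had been planned for, but because the deposited values were normalised, log2(value + 1) was fitted with limma-trend (limma 3.58.1, R 4.3.3) over all 19 libraries and 6 groups, after filterByExpr with a minimum count of 10 left out 1235 of 90154 peaks. Benjamini-Hochberg adjustment covered all 88919 tested peaks, with a threshold of 0.05, and fold changes are on this log2 scale, which understates those of weak peaks. Recovered reads were also tested with edgeR 4.0.16 and DESeq2 1.42.0. The scripts were tested on simulated data.

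Peak positions are those of the table, on mm10 (GRCm38). Strands and promoters came from a RefSeq table with 16457 of the 20665 protein-coding genes, without chromosome 18, which was not analysed here for strand or sequence. Non-overlap of groups was judged on all libraries. Peaks were named by rule: in each direction, the 5 smallest p for TNF at 24 h and for 24 h against NSPs, and the 3 smallest for TNF at 72 h, 1 week against 72 h, and 72 h and 1 week against NSPs, all among calls whose libraries did not overlap, and pairs known as bidirectional. Other peaks named for TNF or as examples of a list were chosen after their values were seen. The peaks and gene lists were chosen with earlier results of these data known. Other scalings, filters, windows and omitted libraries were tried as alternatives, and their effects are given in the closing section. Some named pairs are not reported here. Counting error is covered only as far as replicates show it.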

Additional observations from a re-analysis of the deposited data

Results flagged for a closer look

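Within the groups of 4 libraries, 50 sets of values of named peaks were checked for 1 library far from the rest, using the ratio of the gap to the whole range and Dixon's critical value for 4 samples. Chance gives about 1 such case in 20. Cmtm5/Il25 at 1 week passed, with a ratio of 0.886 and values of 537.8, 544, 545.7 and 476.1 normalised reads, the last being replicate 4.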

How the results depend on the processing

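The counts of shared peaks that fell or rose depended most on scaling and on single libraries. With equal total reads the counts higher and lower were 59 and 205 at 24 h, 65 and 279 at 24 h with TNF, 162 and 381 at 72 h, 184 and 297 at 72 h with TNF, each against NSPs, 401 and 53 for 1 week against 72 h, and 15 higher for TNF at 72 h. With loess, chosen after seeing the data, they were 85 and 235, 93 and 272, 205 and 359, 212 and 304, and 111 and 29, with 284 lower at 1 week against NSPs and 16 higher for TNF at 72 h. Fitting only the groups compared gave 264 lower at 24 h, 14 lower for TNF at 24 h and 64 higher for TNF at 72 h. A window of 250 bp, which leaves 812 tested peaks, gave 13, 19, 30 and 50 higher in the first 4 comparisons, 273 higher and 92 lower at 1 week, 4 and 2 for TNF at 24 h, 14 and 3 for TNF at 72 h, and 3 lower for 1 week against 72 h. A window of 1000 bp, with 1779 tested, gave 68, 88, 127 and 149 higher, 304 lower at 1 week, 19 and 11 for TNF at 24 h, 24 lower for TNF at 72 h and 46 lower for 1 week against 72 h. Genes that do not overlap (822) gave 98 lower at 1 week, 4 lower for TNF at 24 h, and 14 and 7 for TNF at 72 h. Windows and overlap change the number of peaks tested; for scaling and fit the cause was not tested. The offset in level over single-gene peaks, 0.660 as a mean over libraries, was 0.630 with a pseudocount of 10, 0.642 with 1000 bp and 0.772 without overlapping genes. Leaving out the 9 peaks empty in tagged libraries, also chosen after seeing the data, gave 28 and 543 at 24 h, 79 and 504 at 72 h with TNF, 411 and 150 at 1 week, and 909 and 15 for 1 week against 72 h.

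Leaving out 1 library at a time gave 24 to 38 higher and 330 to 570 lower at 24 h, 31 to 41 and 488 to 670 at 24 h with TNF, 52 to 82 and 579 to 706 at 72 h, 63 to 106 and 406 to 530 at 72 h with TNF, 314 to 506 and 139 to 167 at 1 week, 7 to 16 and 3 to 15 for TNF at 24 h, 9 to 73 and 8 to 15 for TNF at 72 h, 775 to 960 and 11 to 20 for 1 week against 72 h, and 1083 to 1132 for the F test. The lowest 24 h count was without 24 h replicate 3, and 73 for TNF at 72 h was without NSPs replicate 1.

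The replicate numbers of the titles were used, although the 72 h with TNF libraries carry other numbers in their library names. These numbers did not pair the libraries: deviations of same-numbered libraries correlated at -0.0449 to 0.106, with a median of 0.0108, and 1 of 45 pairs was over 0.1. With the replicate block the counts were 27 and 502, 37 and 621, 58 and 677, 74 and 487, 367 and 142 in the 5 comparisons with NSPs, 18 and 11 for TNF at 72 h, 10 and 6 for TNF at 24 h, 850 and 17 for 1 week against 72 h and 1084 for the F test.

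Of the named changes, only uncalled ones at 24 h reversed. After loess Npat/Atm gave 0.086, Psmb9/Tap1 0.20, Mrps12/Sars2 0.057 and Osgep/Apex1 0.037. With equal totals Psmb9/Tap1 gave 0.18, U2af1l4/Psenen 0.013 and Osgep/Apex1 0.013. Psmb9/Tap1 gave 0.039 with edgeR and TMM, and 0.016 with edgeR and RLE and with DESeq2. Leaving out 1 library moved Surf2/Surf1 between -0.084 (without NSPs replicate 1) and 0.15, and Psmb9/Tap1 between -0.070 and 0.038 (without 24 h replicate 1). Over 65 named changes, the other settings left 539 results on their side of the threshold, 30 lost it, 6 gained it and 10 reversed.

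Small changes shared by most strong peaks cannot be separated from the choice of scaling. Depth was highest in NSPs, and weak peaks such as Kif7/Ticrr in NSPs rest on few reads. The tag of the later libraries coincides with time.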

Other observations

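Apart from H2bc23/H2ac23 and H2ac24/H4bc24, shared peaks too weak to test were Gm38690/D830030K20Rik, with at most 13 reads in a library, LOC115488278/Entpd4b, Gm3417/9030025P20Rik, Gm3448/Gm3435, Fam205a4/Gm20878 and Fam205a3/Gm21953.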
